A study of Mus musculus with 40 samples.

Results

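The genes described here are 7 members of the voltage-gated calcium channel machinery of the heart: the pore genes Cacna1c, Cacna1g and Cacna1h, the accessory subunit genes Cacnb2 and Cacna2d1, and Rem1 and Rrad, which encode RGK proteins, small GTPases that inhibit these channels. They were chosen by gene name. All 7 were present in both gene tables, among 25462 genes in the female table and 24930 in the male table. The series compares mice with a knockout of Rbm20, a splicing regulator of striated muscle whose loss causes dilated cardiomyopathy, with wildtype mice, and asks how the sexes differ. RNA was sequenced from the left ventricles of knockout females, wildtype females, knockout males and wildtype males, all 10 weeks old, with 5 mice in each of the 4 groups and 2 libraries per mouse. Names such as ko_f_154 give the genotype, sex and number of a mouse in the labels; for that mouse 1 library could be used. The kind of Rbm20 allele, the strain and the littermate status of the mice are not given in the sources used here, and the knockout is not described as restricted to heart muscle.

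In each heartbeat the L-type calcium channel opens on depolarization and lets in the calcium that triggers further release from the sarcoplasmic reticulum. Its pore is encoded by Cacna1c, and a β subunit (mainly Cacnb2 in heart) and an α2δ subunit (mainly Cacna2d1) bring the pore to the membrane and tune its gating. RGK proteins bind the β subunit and hold the current down, and phosphorylation of Rad, the product of Rrad, by protein kinase A relieves that hold during β-adrenergic stimulation. T-type channels, with pores encoded by Cacna1g and Cacna1h, open at more negative voltages; they are prominent in pacemaker and fetal heart muscle and scarce in adult ventricle.

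The libraries of knockout females held 6166106 to 11624594 reads in genes and those of wildtype females 7817093 to 11125655. Those of knockout males held 2351987 to 16973229 and those of wildtype males 5710301 to 10167290. The targeted gene was lower in every knockout mouse: Rbm20 had 289 to 555 normalized counts in knockout females against 1001 to 1342 in wildtype females, and 221 to 308 in knockout males against 795 to 894 in wildtype males. Values are the authors' normalized counts, that is, reads divided by a size factor for each library, averaged over the libraries of a mouse. Differences are log2 of the value plus 1, knockout minus wildtype, from limma with Benjamini-Hochberg adjustment over all genes tested and a threshold of 0.05. Each sex was scaled in its own table, so levels are not compared between females and males. In whole tissue, fewer cells of a type and less RNA per cell cannot be told apart. Heart muscle markers of the ventricular list were high in every mouse. They summed to 523160 to 639899 normalized counts over 7 genes in females and 395552 to 544239 in males. This sum is not a measure of ventricular against atrial tissue.

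Atrial tissue markers differed between mice and are given here because the T-type genes are also expressed in atria. Myl7, the atrial myosin light chain, reached 8051 normalized counts in ko_f_151, 1223 in ko_f_154, 1416 in wt_f_144 and 692 in wt_m_112, and lay between 0 and 173 in the other 16 mice. The atrial list summed to 274 to 25428 in knockout females (median 937) and 229 to 4276 in wildtype females (median 254), over 5 of its 6 genes. In males it summed to 187 to 250.5 in knockouts (median 213) and 126 to 2646 in wildtype (median 278), over all 6 genes, with Bmp10 at 0 in all knockout males. The fits were also run without the 4 mice with Myl7 of at least 500. For the members, values from these fits are given beside the calls and where they moved. The further channel genes described below are given from the fits with all mice only. Fibroblast markers were higher in knockouts in both sexes, 3 of 5 past the threshold in females and 4 of 5 in males. Of 5 endothelial markers, 2 were lower in knockout females and 1 was lower in knockout males. The part of these markers in the results on the channel genes was not tested.

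Among the 7 members, 1 rose and none fell in knockout females, where 5.28% of 12781 tested genes rose and 5.51% fell. In males 6 members passed the filter on a mean of at least 10 normalized counts; 2 of these rose in knockouts and none fell, where 7.6% of 12506 tested genes rose and 8.29% fell. The member that rose in females was Cacna1g, and those that rose in males were Rem1 and Cacna2d1. The median log2 difference was -0.07 over 7 tested members in females, beside 0.00 over all genes, and 0.18 over 6 tested members in males, beside 0.00 over all genes. Knockout and wildtype mice did not overlap for 1 member in females, against 9.14% of genes tested, and for 2 members in males, against 12.7% of genes tested.

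**Figure D1:**
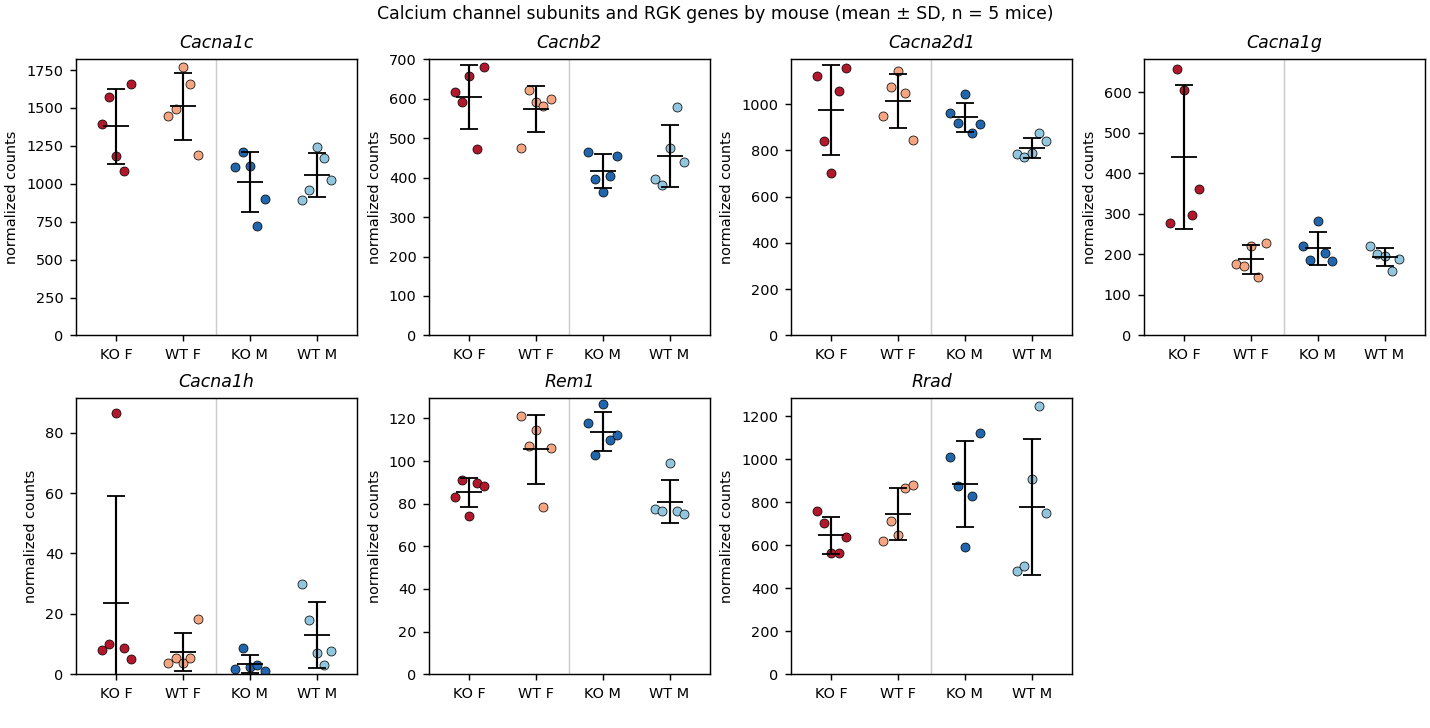
Normalized counts (vertical axes, each starting at 0) of the 7 genes in every mouse, by group: knockout (KO) and wildtype (WT) females (F) and males (M); bars are means ± SD, n = 5 mice, and levels of the sexes come from separately scaled tables. Cacna1g is higher in all 5 knockout females than in any wildtype female, and Rem1 is higher in all 5 knockout males than in any wildtype male.

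The L-type pore gene Cacna1c (ENSMUSG00000051331.17, chr6:118564201-119173851, minus strand, GRCm39) did not pass the test in either sex. Its normalized counts were 1086 to 1656 in knockout females (median 1393) and 1191 to 1770 in wildtype females (median 1494), with overlapping groups. The log2 difference was -0.14 with a 95% interval of -0.41 to 0.14 (limma adjusted p = 0.54). In males the values were 722 to 1211 in knockouts (median 1109) and 892 to 1245 in wildtype (median 1026), again overlapping. The log2 difference was -0.08 with an interval of -0.36 to 0.20 (limma adjusted p = 0.75).

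Cacnb2 (ENSMUSG00000057914.16, chr2:14607899-14992719, plus strand), the main cardiac β subunit, also stayed short of the threshold. Normalized counts averaged 604 ± 80.6 in knockout females and 574 ± 57.3 in wildtype females (SD, n = 5 each), and 416 ± 42.5 in knockout males and 455 ± 79.2 in wildtype males. The log2 differences were 0.07 in females (interval -0.15 to 0.29, limma adjusted p = 0.73) and -0.12 in males (interval -0.35 to 0.11, limma adjusted p = 0.53). All 4 intervals for Cacna1c and Cacnb2 hold 0, and together they span -0.41 to 0.29 on the log2 scale.

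Cacna2d1 (ENSMUSG00000040118.16, chr5:16139689-16579509, plus strand), which encodes the α2δ-1 subunit, rose slightly in knockout males. Its normalized counts were 962, 917, 1045, 875 and 915 in knockout males (ko_m_97, ko_m_106, ko_m_127, ko_m_128 and ko_m_130), against 783, 771, 791, 873 and 840.4 in wildtype males (wt_m_112, wt_m_113, wt_m_124, wt_m_125 and wt_m_139). The groups only just failed to overlap, with 874.9 in the lowest knockout and 873.4 in the highest wildtype male. The change was 1.16-fold (log2 0.21 ± 0.07 SE, limma adjusted p = 0.044, higher in 5 of 5 knockout males). The call was lost when any 1 of 7 of the 10 males was left out (log2 from 0.18 to 0.24 and adjusted p from 0.036 to 0.107 over the 10 fits). One of these is the fit without wt_m_112, the male with Myl7 of at least 500, where the log2 difference was 0.20 (adjusted p = 0.095). The call was also lost with no filter on low genes, at the same log2 difference of 0.21 (adjusted p = 0.072). In females Cacna2d1 averaged 976 ± 196 in knockouts and 1012 ± 117 in wildtype (SD, n = 5 each), with overlapping groups and a log2 difference of -0.07 (limma adjusted p = 0.79). Its male change exceeded its female change by 0.29 on the log2 scale, with an interval of -0.03 to 0.60 (limma adjusted p = 0.69).

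The 2 T-type pore genes differed from each other in level and in pattern. Cacna1g (ENSMUSG00000020866.18, chr11:94299217-94365024, minus strand), which encodes Cav3.1, rose in knockout females. It had 278, 656, 604, 298 and 361 normalized counts in knockout females (ko_f_95, ko_f_150, ko_f_151, ko_f_154 and ko_f_155), against 176, 170.0, 221, 145 and 228 in wildtype females (wt_f_140, wt_f_141, wt_f_142, wt_f_143 and wt_f_144). All 5 knockout females stood above all 5 wildtype females, and ko_f_150 and ko_f_151 stood well above the other 3 knockouts. The change was 2.22-fold (log2 1.15 ± 0.23 SE, limma adjusted p = 0.0066, higher in 5 of 5 knockout females), and the adjusted p lay between 0.0054 and 0.021 when each mouse was left out.

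In knockout females Cacna1g had 278 and 361 normalized counts in ko_f_95 and ko_f_155, both with Myl7 at 0. Both values lay above the 228 of the highest wildtype female. Cacna1g had 656 in ko_f_150 (Myl7 at 173), 604 in ko_f_151 (Myl7 at 8051) and 298 in ko_f_154 (Myl7 at 1223). The wildtype female with the most Cacna1g, wt_f_144, also had the most Myl7 among wildtype females, at 1416. Without ko_f_151, ko_f_154 and wt_f_144 the log2 difference was 1.19 ± 0.24 SE (limma adjusted p = 0.011). Conduction system markers were also higher in some of these mice: Etv1 had 159.7 to 238 normalized counts in knockout females and 132 to 145 in wildtype females, with no overlap, and Cntn2 had 51.9 to 411 in knockouts and 3.29 to 98.3 in wildtype. Gja5, Irx3 and Tbx5 overlapped between the groups, and the list summed to 546 to 1458 in knockout females (median 596) and 526 to 610.3 in wildtype females (median 594). The part of these markers and of atrial tissue in the Cacna1g result was not tested. In males Cacna1g averaged 215 ± 40.4 in knockouts and 193 ± 22.7 in wildtype (SD, n = 5 each), and the groups overlapped. The male log2 difference was 0.15 with an interval of -0.10 to 0.40 (limma adjusted p = 0.45).

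Cacna1h (ENSMUSG00000024112.17, chr17:25593259-25652757, minus strand), which encodes Cav3.2, was scarce in most mice and uneven in the rest. It had 7.83, 10.1, 86.7, 8.55 and 5.14 normalized counts in knockout females (ko_f_95, ko_f_150, ko_f_151, ko_f_154 and ko_f_155), against 3.68, 5.22, 3.602, 5.38 and 18.4 in wildtype females (wt_f_140 to wt_f_144, in order). The highest mouse of each group, ko_f_151 and wt_f_144, was also the highest for Myl7. The difference was log2 0.99 ± 0.64 SE (limma adjusted p = 0.37), and without ko_f_151 the gene fell below the filter on low values. The fold was 1.98 by limma, 3.38 by edgeR (adjusted p = 0.18) and 3.32 by DESeq2, which gave no adjusted p.

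In males Cacna1h had 1.58, 8.68, 2.35, 3.17 and 0.959 normalized counts in knockouts (ko_m_97, ko_m_106, ko_m_127, ko_m_128 and ko_m_130), against 30.001, 17.9, 6.94, 2.91 and 7.52 in wildtype (wt_m_112, wt_m_113, wt_m_124, wt_m_125 and wt_m_139). These rest on 2 to 21 reads per mouse in knockouts and 6 to 73 in wildtype. Its mean was below the filter, so it was not among the genes tested. With no filter the log2 difference was -1.57 ± 0.49 SE (limma adjusted p = 0.060), while the authors' deposited table gives a log2 fold change of -1.85 with an adjusted p of 0.0021, by a DESeq2 test in which 23.2% of genes with an adjusted p passed. The libraries of a mouse entered that test as separate columns. The wildtype males highest for Cacna1h, wt_m_112 and wt_m_113, had the most Myl7 among males, at 692 and 130.1, and Myl7 was at most 1.58 in every knockout male. The part of atrial tissue in this difference was not tested.

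**Figure D2:**
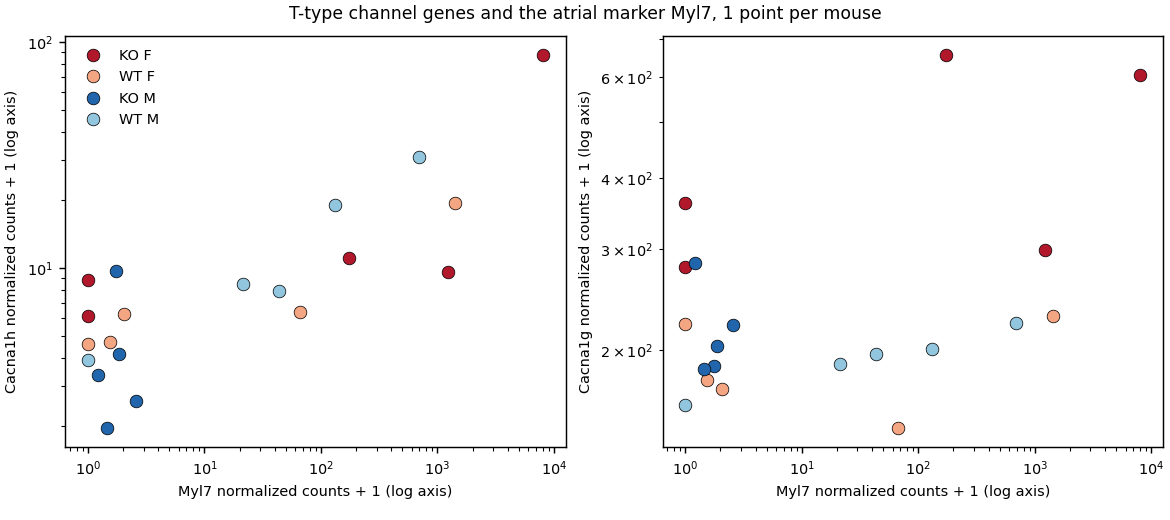
Cacna1h (left) and Cacna1g (right) against the atrial marker Myl7, both as normalized counts plus 1 on log axes, with 1 point per mouse coloured by group: knockout (KO) and wildtype (WT) females (F) and males (M). The mouse with the most Myl7, ko_f_151, also has the most Cacna1h (86.7). Cacna1g is at 278 and 361 in the 2 knockout females with Myl7 at 0, and at 604 in ko_f_151.

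Of the RGK genes, Rem1 (ENSMUSG00000000359.4, chr2:152468871-152477118, plus strand) rose in knockout males. It had 118, 103, 126.9, 109.8 and 112.2 normalized counts in knockout males (ko_m_97, ko_m_106, ko_m_127, ko_m_128 and ko_m_130), against 77.6, 76.4, 99.1, 76.5 and 75.4 in wildtype males (wt_m_112, wt_m_113, wt_m_124, wt_m_125 and wt_m_139). The groups did not overlap, and 4 of the 5 wildtype males lay within 75.4 to 77.6. The change was 1.41-fold (log2 0.49 ± 0.10 SE, limma adjusted p = 0.0027, higher in 5 of 5 knockout males), and it passed the test whichever male was left out (adjusted p from 0.00084 to 0.0087). Without wt_m_112, the male with Myl7 of at least 500, the log2 difference was 0.48 ± 0.11 SE (adjusted p = 0.0074).

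In females the difference in Rem1 ran the other way and did not pass. Normalized counts were 83.2, 90.9, 74.4, 89.8 and 88.5 in knockout females (ko_f_95, ko_f_150, ko_f_151, ko_f_154 and ko_f_155), against 121, 107, 115, 78.6 and 106.3 in wildtype females (wt_f_140 to wt_f_144, in order). Of the wildtype females, wt_f_143 alone lay within the range of the knockouts, and the other 4 stood above it. The log2 difference was -0.29 ± 0.11 SE (limma adjusted p = 0.12). It passed the threshold without wt_f_143 (log2 -0.39, adjusted p = 0.019) and in the authors' deposited table (log2 fold change -0.27, adjusted p = 0.030), where 21.7% of genes with an adjusted p passed. Without the 3 females with Myl7 of at least 500 the log2 difference was -0.25 (limma adjusted p = 0.32).

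Rrad (ENSMUSG00000031880.8, chr8:105354702-105357959, minus strand) varied widely between males. It had 591 to 1123 normalized counts in knockout males (median 874) and 482 to 1247 in wildtype males (median 750.4). The log2 difference was 0.25 with an interval of -0.24 to 0.74 (limma adjusted p = 0.53). In females it had 564 to 757 in knockouts (median 638) and 621 to 881 in wildtype (median 714), with a log2 difference of -0.20 and an interval of -0.45 to 0.05 (limma adjusted p = 0.30). Without the mice with Myl7 of at least 500, the log2 difference in Rrad was 0.098 in males and -0.015 in females.

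The promoter windows of Rem1 and Cacna2d1, the members that rose in knockout males, are shown for comparison of their sequence. They were taken from RefSeq, build GRCm38.p6, whose promoter table matched 4 of the 7 members, and cover bases 250 to 51 before the annotated start. Capitals mark the GC box, GGGCGG or its reverse complement CCGCCC, and TATAAA and TTTATA were searched as well.
Rem1: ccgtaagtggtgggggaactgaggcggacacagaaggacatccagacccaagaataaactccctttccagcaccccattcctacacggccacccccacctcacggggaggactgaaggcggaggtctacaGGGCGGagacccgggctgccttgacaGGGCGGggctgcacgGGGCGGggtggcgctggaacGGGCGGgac
Cacna2d1: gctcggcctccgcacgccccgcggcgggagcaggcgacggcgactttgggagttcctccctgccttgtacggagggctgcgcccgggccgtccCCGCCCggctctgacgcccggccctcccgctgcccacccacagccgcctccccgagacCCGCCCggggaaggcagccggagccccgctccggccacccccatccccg
The Rem1 window (chr2:152626758-152626957, plus strand) held 4 GC boxes in the forward direction and 0 in reverse. The Cacna2d1 window (chr5:15934441-15934640, plus strand) held 0 forward and 2 reverse. Neither window held TATAAA or TTTATA. Over 32851 mouse promoter windows of the same length, 24.6% held a GC box and 9.14% held TATAAA or TTTATA. As all these windows end 51 bases before the start, motifs nearer the start were not searched. The absence of TATAAA and TTTATA here therefore does not show that the 2 promoters lack them.

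The effect of knockout was then compared between the sexes as the male change minus the female change in 1 fit of the 4 groups. No member passed the adjusted threshold in that fit, where 0% of 12462 genes did and 8.05% (1003 genes) had an unadjusted p under 0.05; edgeR on the recovered reads also called 0 genes, and DESeq2 called 48. Rem1 had a difference of 0.78 ± 0.15 SE on the log2 scale (unadjusted p = 2.8e-05 and adjusted p = 0.078 by limma, edgeR adjusted p = 0.062, DESeq2 adjusted p = 0.0024). Its male change was 0.49 and its female change -0.29. With each of the 20 mice left out in turn, the limma adjusted p for Rem1 lay between 0.0085, without wt_f_143, and 0.17. Without the 4 mice with Myl7 of at least 500 it was 0.29, with a difference of 0.73 ± 0.18 SE. For Rrad the difference was 0.45 ± 0.29 SE with all mice and 0.11 ± 0.30 SE without those 4.

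Cacna1g had a difference of -1.001 ± 0.28 SE (unadjusted p = 0.0015 and adjusted p = 0.22 by limma, edgeR adjusted p = 0.19, DESeq2 adjusted p = 0.047), from a male change of 0.15 and a female change of 1.15. The other 4 members that could be fitted had limma adjusted p-values from 0.69 to 0.98. A difference between the sexes in the response of Cacna1g or Rem1 was therefore called by DESeq2 and not by limma or edgeR with all mice.

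**Figure D3:**
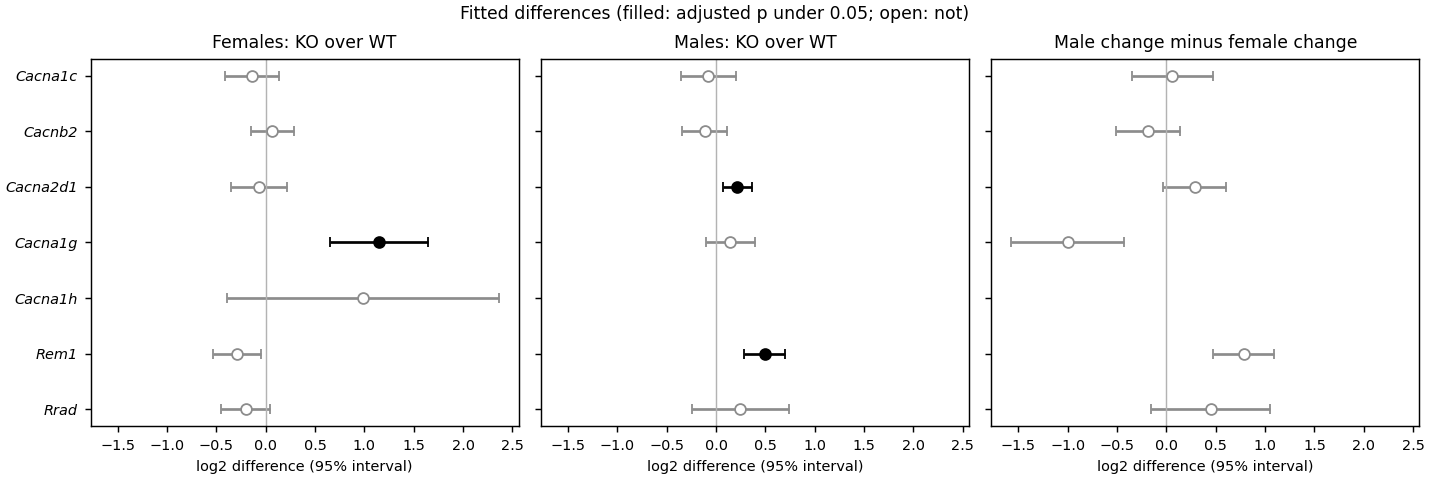
Log2 differences (horizontal axes) with 95% intervals for the 7 genes: knockout over wildtype in females (left) and males (middle), and the male change minus the female change (right); filled points have a limma adjusted p under 0.05. Cacna1g is filled in females and Rem1 and Cacna2d1 in males, none is filled on the right, and Cacna1h is missing from the middle and right panels because its male mean was below the filter.

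Levels were compared between genes as normalized counts per kilobase of exon. In wildtype females Rrad was highest at 473 ± 76.9 per kilobase, followed by Cacna2d1 at 81.5 ± 9.40 and Cacna1c at 71.3 ± 10.4 (SD, n = 5 each). Rem1 had 49.0 ± 7.54, Cacnb2 43.4 ± 4.33, Cacna1g 18.5 ± 3.50 and Cacna1h 0.743 ± 0.643 per kilobase. The ranges of Cacna2d1 and Cacna1c overlapped, as did those of Cacna1c and Rem1 and of Rem1 and Cacnb2, so the order of these neighbours lies within the spread between mice. In wildtype males the order per kilobase was the same, with Rrad at 493 ± 201, Cacna2d1 at 65.4 ± 3.51, Cacna1c at 49.9 ± 6.90, Rem1 at 37.6 ± 4.70, Cacnb2 at 34.4 ± 5.99, Cacna1g at 19.01 ± 2.24 and Cacna1h at 1.34 ± 1.12. There Cacna2d1 stood clear of Cacna1c, while the ranges of Cacna1c, Rem1 and Cacnb2 all overlapped.

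In knockout females Cacna1g reached 43.3 ± 17.5 per kilobase, a level that overlapped that of Cacnb2, at 45.6 ± 6.09. In knockout males Rem1 had 52.8 ± 4.21 per kilobase and Cacna1c 47.7 ± 9.32, with overlapping ranges. The exon length counts every annotated exon of a gene in GENCODE release M21, so levels of genes with many isoforms are understated.

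The deposited exon tables describe bins, parts of a gene shared by the same set of transcripts, and list those with an unadjusted DEXSeq p of at most 0.05. For the members they list 12 bins in females, 5 in Cacna1c, 5 in Cacna1g and 2 in Cacnb2. In males they list 30 bins, 8 in Cacna1c, 5 in Cacnb2, 9 in Cacna2d1, 5 in Cacna1g, 1 in Cacna1h and 2 in Rrad. No bin of Rem1 is listed in either sex. Of the 12 female bins, 2 have an adjusted p under 0.05 in the authors' deposited table, against 5.53% of all listed bins, and 1 of the 30 male bins, against 9.06% of all listed bins. The tables print the start and end of the gene for each bin, so bins are known here by number and gene and not by position. For each mouse the share of a bin was computed as its reads per 1000 reads of its gene. Since the tables list bins by their p, the tests on these shares describe listed bins and are no independent support.

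The member bin with the smallest adjusted p was bin 12 of Cacna1g, the single member bin with an adjusted p under 0.05 in both sexes (2.07e-05 in females and 0.0015 in males in the authors' deposited table, by DEXSeq). In knockout females it had 7, 18, 13, 2 and 11 reads (ko_f_95, ko_f_150, ko_f_151, ko_f_154 and ko_f_155), against 0, 0, 0, 1 and 0 reads in wildtype females (wt_f_140 to wt_f_144, in order). Its share was 11.7 ± 2.10 per 1000 gene reads in knockout females and 0.660 ± 1.48 in wildtype females (SD, n = 5 each). The groups did not overlap, with an exact two-sided permutation p of 0.0079, the smallest that 5 against 5 allow.

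In knockout males bin 12 had 8, 5, 14, 10 and 9 reads (ko_m_97, ko_m_106, ko_m_127, ko_m_128 and ko_m_130), against 2, 1, 5, 0 and 1 in wildtype males (wt_m_112, wt_m_113, wt_m_124, wt_m_125 and wt_m_139). Its share was 19.1 ± 4.54 per 1000 gene reads in knockout males and 4.07 ± 3.87 in wildtype males (exact permutation p = 0.0079, n = 5 each). Cacna1g as a whole did not pass the test in males, so in that sex the share of this bin differed without a call on the gene.

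Other bins of Cacna1g were listed in females too. Bin 11 had 10.9 ± 4.63 per 1000 gene reads in knockout females and 3.31 ± 3.20 in wildtype females, on 40 and 6 reads. The groups did not overlap, and the authors' deposited adjusted p was 0.35, by DEXSeq. In males bin 11 had 11.8 ± 4.85 in knockouts and 4.64 ± 3.16 in wildtype, with overlapping groups, on 26 and 10 reads. Bin 21 had a lower share, 15.3 ± 2.45 in knockout females and 25.7 ± 4.66 in wildtype females. These groups did not overlap either, and the authors' deposited adjusted p was 0.45, by DEXSeq. Bins 11 and 12 of Cacna1g and bin 41 of Cacnb2 are the 3 member bins listed in both sexes. Bin 41 of Cacnb2 had 54.4 ± 13.8 per 1000 gene reads in knockout females and 40.1 ± 6.42 in wildtype females, and 53.4 ± 9.01 in knockout males and 41.3 ± 6.91 in wildtype males, overlapping in both sexes.

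**Figure D4:**
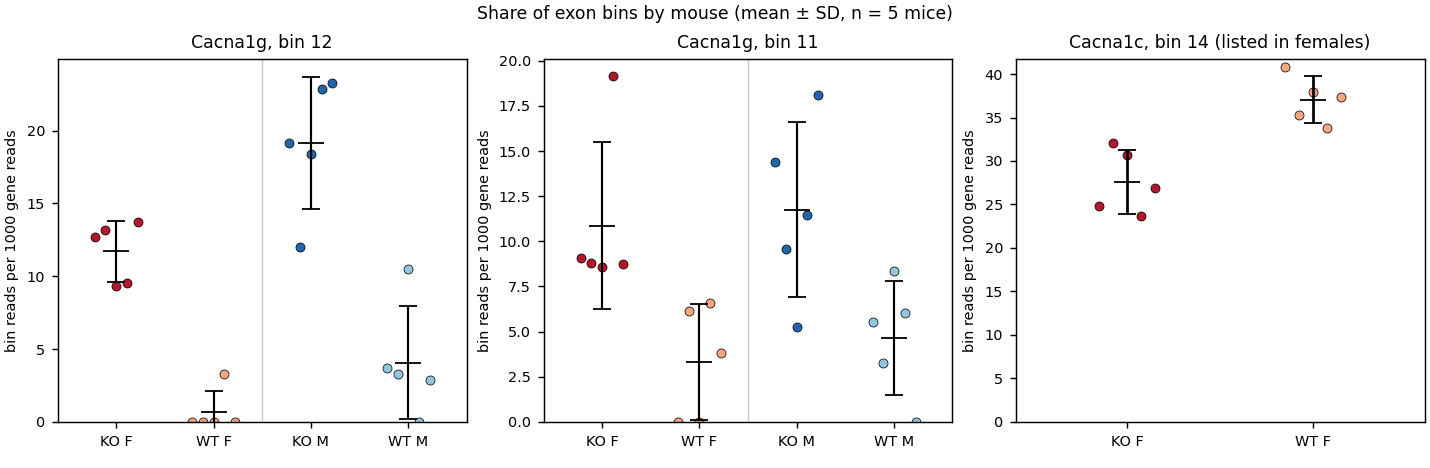
Reads of an exon bin per 1000 reads of its gene (vertical axes from 0) in every mouse, for bins 12 and 11 of Cacna1g in both sexes and bin 14 of Cacna1c in females, where it is listed; KO is knockout, WT wildtype, F female, M male, and bars are means ± SD, n = 5 mice. Bin 12 does not overlap between knockout and wildtype mice in either sex, and bin 14 of Cacna1c is lower in all 5 knockout females.

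In Cacna1c, reported as a splicing target of RBM20, bin 14 had a smaller share in knockout females (authors' deposited adjusted p = 0.012, by DEXSeq). It had 24.8, 32.1, 30.7, 23.6 and 26.9 per 1000 gene reads in knockout females (ko_f_95, ko_f_150, ko_f_151, ko_f_154 and ko_f_155), against 40.9, 35.3, 38.0, 33.8 and 37.4 in wildtype females (wt_f_140 to wt_f_144, in order). All 5 knockout females lay below all 5 wildtype females. Bins 15 and 16 also had smaller shares in knockout females, with overlapping groups, at 27.9 ± 3.90 and 53.9 ± 8.31 in knockouts and 32.9 ± 3.19 and 65.9 ± 3.86 in wildtype. Bin 64 likewise had a smaller share, 3.19 ± 1.77 in knockout females and 5.84 ± 1.75 in wildtype females. Bin 1, which holds the most reads of the 5, went the other way, with overlapping groups. Its share was 298 ± 56.4 in knockout females and 253 ± 29.2 in wildtype females. How the share of bin 1 bears on the shares of the other bins was not tested. None of bins 14, 15 and 16 is listed in males, where 8 other bins of Cacna1c are listed and none has an adjusted p under 0.05.

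All 9 listed bins of Cacna2d1 in males had a higher share in knockouts, and none has an adjusted p under 0.05. Over all members 23 of the 30 listed male bins had a higher share in knockouts, with 6 of 8 in Cacna1c. The direction is thus not particular to Cacna2d1, and it was not counted over all listed bins of the male table. Bins 1 to 4, which carry no adjusted p in the deposited table, held 21, 24, 27 and 28 reads in knockout males, against 3, 2, 1 and 4 reads in wildtype males. Of the knockout reads, 13, 13, 15 and 15 came from ko_m_106 alone. The lowest adjusted p among the other 5 was 0.067 (authors' DEXSeq), for bin 49, with a share of 12.4 ± 3.63 in knockout males and 7.21 ± 3.01 in wildtype males. In bins 7, 23, 48 and 49 the highest share was that of ko_m_127.

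A list of 42 further genes of the channel complex and its control was described in the same fits, with all mice. In females 28 of these were tested, of which 1 rose and 2 fell, beside 5.28% of all tested genes that rose and 5.51% that fell. The median log2 difference was -0.01 beside 0.00 over all genes. In males 27 were tested, of which 4 rose and none fell, beside 7.6% of all tested genes that rose and 8.29% that fell. The median was 0.06 beside 0.00. Most of these genes, like most members, did not pass in either sex.

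Cacnb1, a β subunit known best from skeletal muscle, rose in both sexes. It averaged 122 ± 15.7 normalized counts in knockout females and 85.6 ± 6.29 in wildtype females (log2 0.50 ± 0.10 SE, limma adjusted p = 0.0055). In males it averaged 142.5 ± 11.5 in knockouts and 87.5 ± 5.95 in wildtype (log2 0.70 ± 0.08 SE, limma adjusted p = 5.6e-05). The ranges did not overlap in either sex, at 103 to 143.4 in knockout females against 80.6 to 96.3 in wildtype females, and 126.7 to 158 in knockout males against 77.2 to 91.8 in wildtype males.

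The members of the list that fell in knockout females were Cacna1s, the skeletal muscle L-type pore gene, and Akap7, which encodes an anchor of protein kinase A. Cacna1s averaged 41.1 ± 8.56 normalized counts in knockout females and 60.8 ± 6.70 in wildtype females (log2 -0.57 ± 0.15 SE, limma adjusted p = 0.024). Akap7 averaged 199 ± 11.6 in knockout females and 235 ± 16.99 in wildtype females (log2 -0.24 ± 0.07 SE, limma adjusted p = 0.042).

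In knockout males Prkar1a, a regulatory subunit of protein kinase A, rose to 4447 ± 331 normalized counts, against 3442 ± 358 in wildtype males (log2 0.37 ± 0.09 SE, limma adjusted p = 0.0076). Akap6, which encodes the nuclear envelope anchor mAKAP, averaged 1403 ± 167 in knockout males and 1065 ± 89.1 in wildtype males (log2 0.39 ± 0.09 SE, limma adjusted p = 0.0078). Camk2d, the main cardiac form of calcium and calmodulin dependent kinase II and a known splicing target of RBM20, averaged 1364 ± 168 in knockout males and 1093 ± 48.5 in wildtype males (log2 0.31 ± 0.08 SE, limma adjusted p = 0.018). None of the listed genes passed the adjusted test of the difference between the sexes, where the lowest adjusted p was 0.34 (limma).

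**Figure D5:**
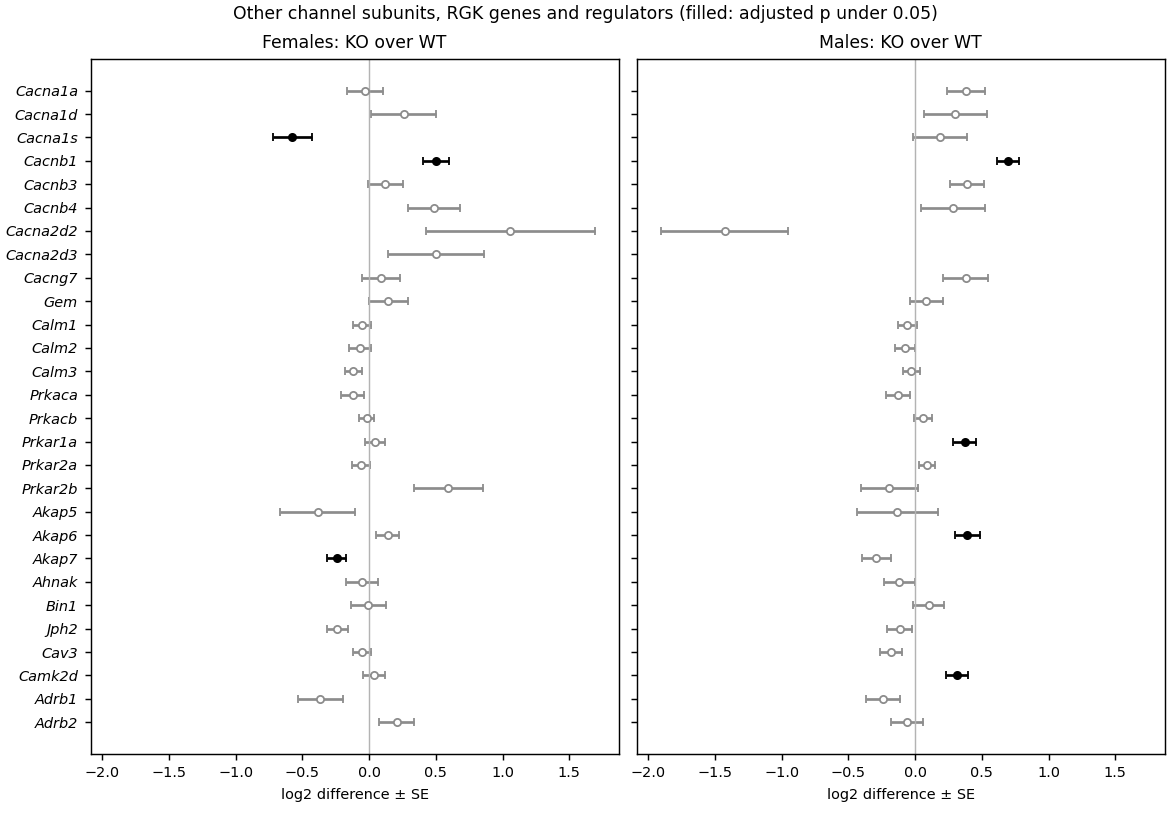
Log2 differences, knockout over wildtype, ± SE (horizontal axes) for the further channel genes and regulators that could be tested, in females (left) and males (right); filled points have a limma adjusted p under 0.05. Cacnb1 lies right of 0 and is filled in both sexes, at 0.50 in females and 0.70 in males.

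The 3 genes most like each member were found by Pearson's r of log2 values over the 20 mice, centred within each sex, over 9117 genes whose mean reached 50. Knockout and wildtype mice were not centred apart, so a shared response to genotype enters the r, as do library and depth. For Rem1 they were Akap12 (r = 0.82), Zzz3 (0.78) and Hes1 (0.71). For Cacna1g they were Cpe (0.78), Tmed3 (0.77) and Ccl21a (0.76). For Cacna1c they were Lama5 (0.84), Fyco1 (0.83) and Kdm3b (0.83), and for Cacna2d1 Ednrb (0.83), Tcf4 (0.83) and Osbp (0.82). For Cacnb2 they included Pank4 (0.78) and Thoc6 (0.77), and for Rrad they were Pitrm1 (0.84), Smyd2 (0.84) and Anapc5 (0.83). Cacna1h was below the minimum mean. These are descriptions over mice of 2 genotypes, with no test.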

How the data were processed

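Left ventricular RNA libraries were aligned with STAR 2.7.10a to GRCm39 and tested with DESeq2, per the submitters' processing notes; the counting program and annotation release are not given in the sources used here. The deposited gene tables hold a signal, normalized counts, from which the whole reads behind 100% of values were recovered (tolerance 1e-06); size factors were 0.326 to 2.34. The authors' log2 fold changes and p-values were used only where named. The exon tables give, as deposited, raw counts of reads in each bin, with the authors' DEXSeq p-values; score columns in both kinds of table are the authors' test statistics and dispersions, not used here; the 2 male exon tables agree for 30 of 30 member bins. They print the gene's start and end for each bin.

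Columns were matched by number. A single column (1) of the female values has no match among the labels and stayed out, leaving 39 libraries. Libraries of 1 mouse differed by a chi-square of 1.07 to 1.84 per degree of freedom (19 pairs) and those of different mice of a group by 2.77 to 32.6 (152 pairs), so the mouse was the replicate. In males the authors' mean for each member equals the mean over the 20 library values (97.4 for Rem1). The libraries of a mouse thus entered that test as separate columns. In females 1 column stayed out here, so this check was not made. Whether the authors' test took account of the mouse is not stated. If it did not, its p-values count libraries of 1 mouse as replicates. Normalized counts were averaged per mouse, and genes with a mean of at least 10 entered limma 3.58.1 on the scale log2(value + 1) (trend, two-sided, R 4.3.3, Benjamini-Hochberg, threshold 0.05). edgeR had been the first choice for counts; since the unit was normalized, edgeR 4.0.16 and DESeq2 1.42.0 on recovered reads were alternatives. The code was tested on simulated data. Shares of bins were compared by exact permutation over mice. Other alternatives were pseudocounts of 0.5 and 5, other filters, TMM scaling, summed reads, and leaving out mice.

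Named genes are all members, Rbm20, up to 8 called genes of the further list per sex with the smallest p, and the 3 genes most like each member; 1 gene that this rule names is not reported here. Bins were named after their values were seen. The members and lists were chosen with earlier results of these data known. Other marker lists gave the following counts past the threshold, higher then lower in knockouts: pacemaker 0 and 0 in females, 1 and 2 in males; conduction system 1 and 0 in females, 0 and 1 in males; smooth muscle 0 and 0 in both sexes; nerve 0 and 0 in females, 0 and 1 in males; ventricular 0 and 0 in females, 0 and 1 in males; atrial 0 and 0 in females, 0 and 1 in males.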

Additional observations from a re-analysis of the deposited data

Results flagged for a closer look

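In each group of 5 mice, the gap between the highest or lowest mouse and its neighbour was compared with the whole range of the group, for the 7 genes in 4 groups. A gap above 0.71 of the range was met in 5 of 28 groups. That limit is meant for independent, normally distributed values, whereas these are counts and the 7 genes share the same mice. No chance rate is therefore set beside the 5. Of these, 3 concern Cacna1h. In knockout females ko_f_151 had 86.7 normalized counts, against 5.14 to 10.1 in the other 4. In wildtype females wt_f_144 had 18.4, against 3.602 to 5.38 in the other 4. In knockout males ko_m_106 had 8.68, against 0.959 to 3.17 in the other 4. For Rem1, wt_m_124 had 99.1 normalized counts, against 75.4 to 77.6 in the other 4 wildtype males. For Cacnb2, wt_f_140 had 475 normalized counts, against 581 to 623 in the other 4 wildtype females.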

How the results depend on the processing

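With all mice, 1379 genes and 1 member passed in females and 1987 genes and 2 members in males. The authors' deposited table called 3604 genes and 2 members in females and 3986 genes and 3 members in males, the third being Cacna1h, lower in knockouts. In males 1 member passed with no filter and 1 without the mouse with Myl7 of at least 500. For the difference between the sexes DESeq2 called 48 genes and 2 members, against 0 and 0 in the limma fit. Leaving out each mouse gave 925 to 1659 genes and 1 to 2 members in females, 1536 to 1880 genes and 1 to 2 members in males, and 0 to 14 genes and 0 to 1 members for the difference between the sexes. Of listed member bins with an exact permutation p under 0.05, there were 7 in females (3 without the mice with Myl7 of at least 500, and 4 to 11 with each mouse left out) and 16 in males (9 with no gene denominator, and 6 to 14 with each mouse left out). These bins were listed by their p in the same contrast, so the counts are no support, and the share over all listed bins was not computed. In females without the mice with Myl7 of at least 500, fewer mice remain and the smallest possible p is larger. Directions turned only for differences short of the threshold: Cacna2d1 in females (-0.14 to 0.041 with each mouse left out, 0.041 without ko_f_151), Cacna1c in males (-0.15 to 0.038, 0.038 without ko_m_128) and Cacna1c between the sexes (-0.020 to 0.18, with -0.020 without ko_f_154 and -0.0099 without ko_m_106; -0.091 without the mice with Myl7 of at least 500). The cause of these changes was not tested. No paired analysis was possible because the mouse numbers are not shared between groups.

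With 5 mice a group and Cacna1h near 10 normalized counts or below, differences in that gene were not resolved at this depth, and no value was available for it in females without ko_f_151 or in the male fits with the filter. Many bins rest on few reads. Without strand information in the sources used here, reads from overlapping antisense genes cannot be told apart, and p-values of listed bins follow their selection.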
